A study of Mus musculus with 12 samples.

Results

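Transcripts of the amino acid and integrated stress response were followed in mouse liver through 10 listed genes: Atf4, Atf5, Ddit3, Trib3, Asns, Chac1, Fgf21, Nupr1, Sesn2 and Gdf15. A gene was measured by the probe set that names it in the platform annotation, and where several did, by the one with the highest mean signal over the 12 arrays. Of the 10 genes, 9 had such a probe set, and no probe set was named for Gdf15, which was therefore not analysed here. All 9 had a mean signal of at least 20, the level below which a gene was taken as dim and left untested, and they were 9 of 11099 genes tested and of 18193 with a named probe set. Nupr1 lay below 20 in one group, NC, so it passed this level through the groups in which it was high.

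Livers came from C57BL/6 mice that were 8 weeks old when the diets began and were labelled as fasting. One array was hybridised per mouse, with 4 mice in each of 3 groups, all fed for 8 weeks. The MCD+HF+Met group received a high fat diet lacking methionine and choline into which 0.1% metformin was mixed, the MCD+HF group received that diet alone, and the NC group received normal chow. The MCD+HF diet is a dietary model of nonalcoholic steatohepatitis (NASH), and metformin, a biguanide used against type 2 diabetes, was given from the start of feeding, so that the comparison of MCD+HF+Met with MCD+HF addresses prevention. The sources used here do not say whether mice of a group shared a cage or litter, so the p-values measure the spread between these mice.

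In the integrated stress response, kinases that sense amino acid shortage, unfolded protein in the endoplasmic reticulum (ER), heme deficiency or viral RNA phosphorylate the initiation factor eIF2. General translation then slows while the mRNA of the transcription factor ATF4 is translated more, so that Atf4 mRNA need not follow ATF4 protein. ATF4 acts with C/EBP partners at composite C/EBP-ATF response elements (CARE) in genes of amino acid synthesis, amino acid transport, stress signalling and hormones such as FGF21, which the liver secretes into blood.

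The promoter windows of the genes that hold a match to the CARE core are printed here because they show where the letters lie in the genes that changed and in those that did not. Windows run from 250 bases before to 50 bases after the start site in RefSeq (GRCm38.p6), and the search used TGATGNAA on either strand. One match each lay in the windows of Nupr1 (chr7:126625421-126625720, minus strand), Fgf21 (chr7:45615441-45615740, minus strand), Asns (chr6:7693160-7693459, minus strand), Trib3 (chr2:152344011-152344310, minus strand) and Chac1 (chr2:119350992-119351291, plus strand). Each sequence is written 5′ to 3′ on the strand of its gene, with the match in capitals.
Nupr1: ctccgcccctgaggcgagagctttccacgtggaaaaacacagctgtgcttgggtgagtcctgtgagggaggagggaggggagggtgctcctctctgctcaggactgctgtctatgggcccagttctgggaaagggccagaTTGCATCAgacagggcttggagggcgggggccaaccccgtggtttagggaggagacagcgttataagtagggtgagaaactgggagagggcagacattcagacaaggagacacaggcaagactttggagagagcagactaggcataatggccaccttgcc
Fgf21: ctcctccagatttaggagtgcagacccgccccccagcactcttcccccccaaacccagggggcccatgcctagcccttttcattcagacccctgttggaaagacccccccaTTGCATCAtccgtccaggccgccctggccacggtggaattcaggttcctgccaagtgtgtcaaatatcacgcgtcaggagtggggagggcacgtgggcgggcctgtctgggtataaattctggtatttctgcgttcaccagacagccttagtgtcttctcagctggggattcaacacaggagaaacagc
Asns: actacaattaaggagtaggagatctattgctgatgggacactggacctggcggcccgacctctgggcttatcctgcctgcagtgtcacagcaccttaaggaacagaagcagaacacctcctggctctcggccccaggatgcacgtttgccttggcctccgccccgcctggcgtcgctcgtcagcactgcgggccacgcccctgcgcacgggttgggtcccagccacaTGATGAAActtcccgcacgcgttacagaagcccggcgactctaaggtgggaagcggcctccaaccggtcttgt
Trib3: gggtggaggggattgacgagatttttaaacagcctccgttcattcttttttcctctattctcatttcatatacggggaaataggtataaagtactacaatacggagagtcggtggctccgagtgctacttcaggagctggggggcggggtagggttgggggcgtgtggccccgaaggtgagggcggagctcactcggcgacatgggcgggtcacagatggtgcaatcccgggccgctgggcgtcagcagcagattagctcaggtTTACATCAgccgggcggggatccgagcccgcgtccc
Chac1: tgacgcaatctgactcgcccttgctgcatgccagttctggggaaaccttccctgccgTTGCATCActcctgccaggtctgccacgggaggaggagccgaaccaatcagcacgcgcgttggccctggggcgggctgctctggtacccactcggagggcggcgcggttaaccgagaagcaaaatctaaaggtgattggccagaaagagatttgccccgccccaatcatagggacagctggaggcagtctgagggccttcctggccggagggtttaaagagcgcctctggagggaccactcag
The first base of the match lay at -110 from the start site in Nupr1, at -139 in Fgf21, at -23 in Asns, at 14 in Trib3 and at -193 in Chac1. The 8 letters were the same in Nupr1, Fgf21 and Chac1. Of all 32851 promoter windows of this length, 1304 (3.97%) held the CARE core. The windows of Atf4, Atf5, Ddit3 and Sesn2 held no match, and none of the windows of the 9 measured genes held the full cAMP response element TGACGTCA, which was present in 588 of all windows (1.79%). A match describes letters and not a bound site.

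With the MCD+HF diet, 5 of the 9 genes rose: Fgf21, Nupr1, Asns, Atf5 and Atf4. In whole liver, fewer cells of a type and less RNA per cell cannot be told apart. The other 4 (Ddit3, Trib3, Chac1 and Sesn2) did not pass the test, and none fell, in a limma fit over all probe sets with Benjamini-Hochberg adjustment and a threshold of adjusted p under 0.05. Over all genes tested, 27.4% rose and 20.8% fell in this comparison. The median log2 change of the 9 genes was 0.50, and that of all genes tested was 0.05. In 4 of the 9 genes no MCD+HF array overlapped an NC array, against 45.1% of all genes tested. At an unadjusted p under 0.05 the count was again 5. The share of all genes at that looser threshold was not counted, so this is a description. Throughout, log2 changes are differences of mean log2(signal + 10), which understates changes of low signals.

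With metformin added to the diet, Nupr1 was the one gene of the 9 that changed, and it rose further. Over all genes tested, 1.63% rose and 2.34% fell between MCD+HF+Met and MCD+HF livers. Groups did not overlap for 2 of the 9 genes, Nupr1 and Atf5, against 12.6% of all genes tested. The median change of the 9 genes was 0.24, and that of all genes tested was 0.01. At an unadjusted p under 0.05, 3 of the 9 passed (Nupr1, Atf5 and Trib3), all higher in MCD+HF+Met livers. The shares of all genes given here are at the adjusted threshold and are no measure for that count, which is a description. Between MCD+HF+Met and NC livers 4 of the 9 rose (Nupr1, Asns, Fgf21 and Atf5), where 25.6% of all genes tested rose and 18.6% fell. In 3 of the 9 those groups did not overlap, against 39.7% of all genes tested, and the median change was 0.46 for the 9 genes and 0.06 for all. The comparisons share arrays, so their counts are not independent of each other.

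**Figure D1:**
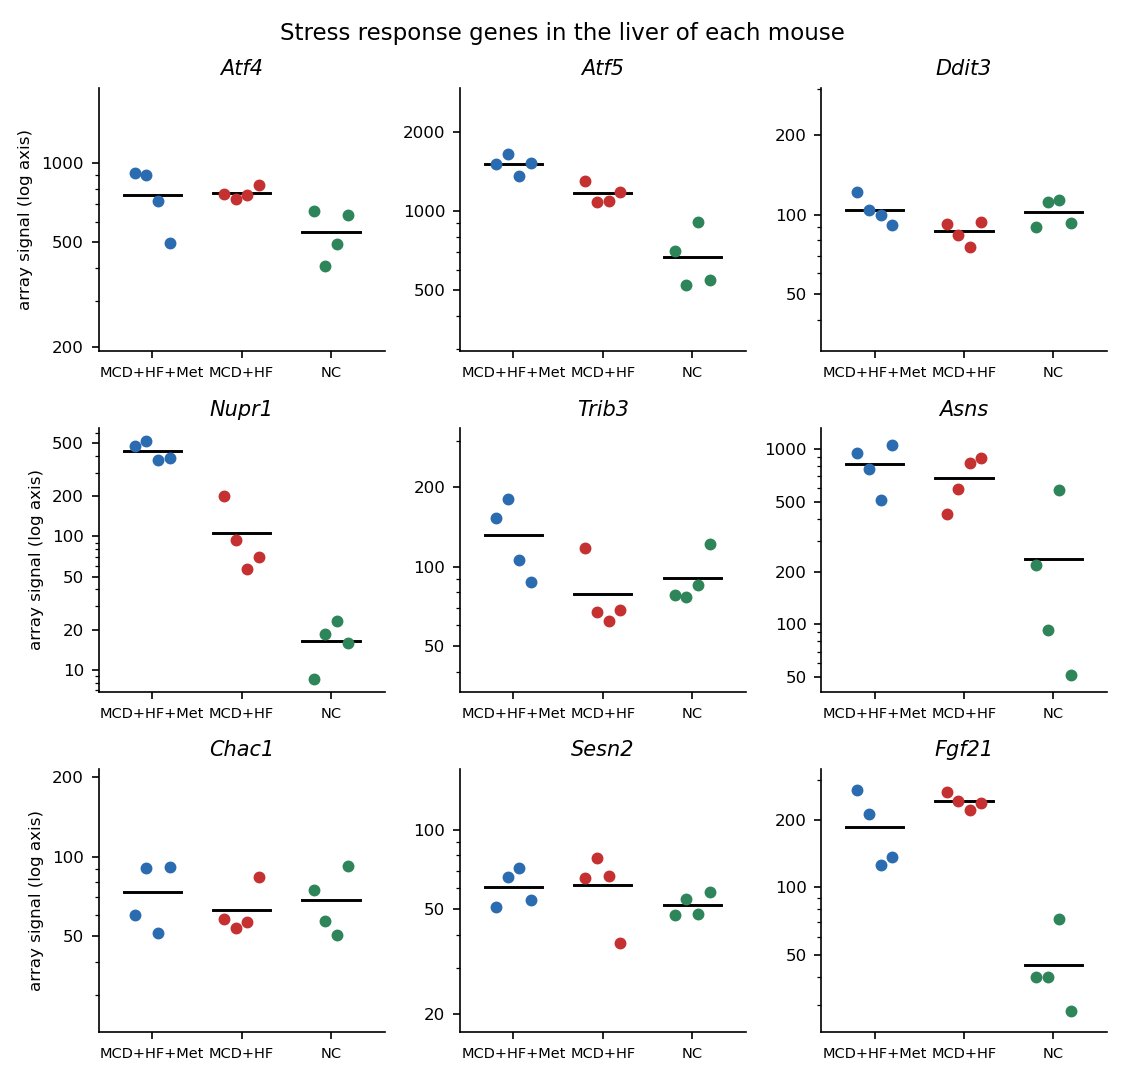
Array signal (log axis) of each gene in each liver, 1 point per mouse, with 4 mice in MCD+HF+Met (blue), MCD+HF (red) and NC (green), and the group mean as a bar. Nupr1 separates all 3 groups (means of 442, 106 and 16.5), while the points of Ddit3, Chac1 and Sesn2 overlap between groups.

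Nupr1 encodes a small stress-induced chromatin protein that is a known target of ATF4. Its signal was 477.3, 522.1, 377.1 and 391.0 in the MCD+HF+Met livers, 202.3, 94.0, 56.7 and 70.1 in the MCD+HF livers, and 8.5, 18.5, 23.1 and 15.9 in the NC livers. Every MCD+HF+Met liver was above every MCD+HF liver, and every MCD+HF liver above every NC liver, with the first MCD+HF mouse well above the other 3 of its group. Nupr1 rose by 2.10 on the log2 scale with metformin (95% interval 1.51 to 2.70, adjusted p = 0.00117 by limma). It rose by 2.01 with the diet (1.41 to 2.60, adjusted p = 2.9e-05), and it was higher by 4.11 in MCD+HF+Met than in NC livers (3.52 to 4.70, adjusted p = 2.4e-08). A second probe set of Nupr1 gave the same order, with means of 346 ± 71.4 in MCD+HF+Met, 89.1 ± 37.3 in MCD+HF and 5.88 ± 2.69 in NC (SD, n = 4 each). On that probe set, which was read from the same arrays and is no independent sample, the change with metformin was 1.89 (adjusted p = 7.9e-04) and that with the diet was 2.58 (adjusted p = 2.2e-07).

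Atf4, the central transcription factor of the response, changed little at the mRNA level. Its signal was 914.2, 898.1, 717.4 and 496.2 in MCD+HF+Met livers, 763.4, 730.1, 756.7 and 828.0 in MCD+HF livers, and 655.4, 408.6, 493.5 and 638.1 in NC livers. The MCD+HF livers lay close together and above all NC livers, whereas the MCD+HF+Met livers spread widely, with 2 mice above the MCD+HF range and the fourth within the NC range. Atf4 rose by 0.50 with the diet (0.13 to 0.88, adjusted p = 0.0304 by limma). This call was lost on leaving out NC replicate 2 (0.37, adjusted p = 0.109), NC replicate 3 (0.46, 0.0727), or MCD+HF replicate 1 (0.51, 0.0533), 3 (0.51, 0.0523) or 4 (0.47, 0.0696). With metformin its change was -0.06 (-0.44 to 0.31, adjusted p = 0.891). Between MCD+HF+Met and NC livers the difference of 0.44 had an adjusted p of 0.0589, which became 0.00353 (change of 0.63) without MCD+HF+Met replicate 4, 0.0387 without NC replicate 1 and 0.0423 without NC replicate 4. A second probe set of Atf4 changed by 0.38 with the diet (adjusted p = 0.0466) and differed by 0.48 between MCD+HF+Met and NC livers (adjusted p = 0.0175), and the third had a mean signal of 1.57 and was not tested.

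Atf5, a bZIP factor that is translated in the same way as ATF4 and is tied to the mitochondrial stress response, was higher in each diet-fed group than in NC. Its signal was 1505.8, 1640.5, 1359.7 and 1522.9 in MCD+HF+Met livers, 1304.1, 1084.8, 1091.5 and 1181.5 in MCD+HF livers, and 708.5, 526.1, 905.1 and 548.4 in NC livers. No group overlapped another. The change with the diet was 0.82 (0.52 to 1.11, adjusted p = 2.3e-04 by limma), and the difference between MCD+HF+Met and NC livers was 1.18 (0.89 to 1.48, adjusted p = 7.8e-06). The step between MCD+HF+Met and MCD+HF was 0.37 (0.07 to 0.67). It did not pass the adjusted test (unadjusted p = 0.0190, adjusted p = 0.164), although all 4 MCD+HF+Met livers were above all 4 MCD+HF livers.

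Ddit3 encodes CHOP, a bZIP factor that accumulates under sustained ER stress. Its signal was 122.1, 104.2, 99.6 and 91.7 in MCD+HF+Met livers, 92.3, 84.1, 75.4 and 93.9 in MCD+HF livers, and 89.7, 112.0, 113.7 and 93.3 in NC livers. The ranges of the groups overlapped, with the lowest values in MCD+HF livers. No comparison passed the test, with changes of 0.24 with metformin (-0.02 to 0.51), -0.22 with the diet (-0.48 to 0.05) and 0.03 between MCD+HF+Met and NC (-0.24 to 0.29). Quantile normalization made the fall with the diet pass (-0.35, adjusted p = 0.0298 by limma), as did the mean of both its probe sets (-0.26, adjusted p = 0.0491). A dimmer second probe set was lower by 0.49 in MCD+HF+Met than in NC livers (adjusted p = 0.0396).

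Trib3 encodes a pseudokinase that is induced by ATF4 and CHOP and restrains both ATF4 and the kinase AKT. Its signal was 152.8, 180.3, 105.6 and 87.4 in MCD+HF+Met livers, 118.0, 67.3, 62.4 and 68.5 in MCD+HF livers, and 77.9, 76.8, 85.5 and 122.1 in NC livers. The first MCD+HF mouse stood above the other 3 of its group and inside the range of the MCD+HF+Met mice. The mean was 132 ± 42.6 in MCD+HF+Met, 79.1 ± 26.1 in MCD+HF and 90.6 ± 21.4 in NC livers (SD, n = 4 each). MCD+HF+Met livers were higher than MCD+HF livers by 0.66 (0.19 to 1.13). This did not pass (unadjusted p = 0.00952, adjusted p = 0.115 by limma), and the change with the diet was -0.19 (-0.67 to 0.28). The difference of 0.46 between MCD+HF+Met and NC livers had an adjusted p of 0.111, and of 0.0343 without MCD+HF+Met replicate 4 (0.63). A second Trib3 probe set gave 0.60 with metformin (adjusted p = 0.211).

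**Figure D2:**
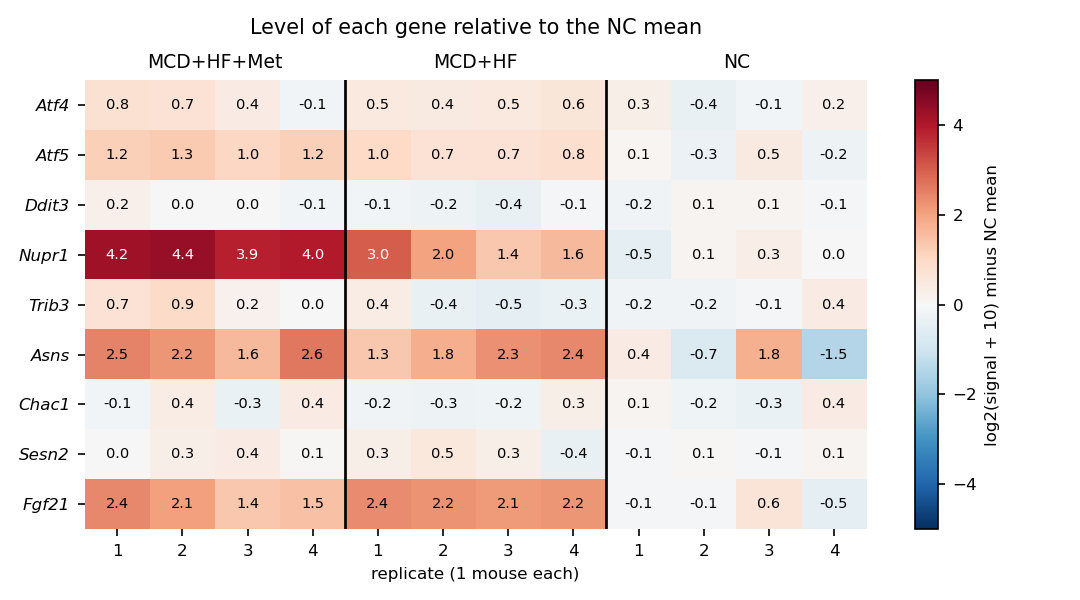
Level of each gene (rows) in each mouse (columns, replicates 1 to 4 of MCD+HF+Met, MCD+HF and NC), as log2(signal + 10) minus the mean of the 4 NC mice. Nupr1 is darkest in MCD+HF+Met, Fgf21 (1.35 to 2.40) and Asns (1.34 to 2.63) are raised in all 8 diet-fed mice, and NC replicate 3 is raised for Asns within its group.

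Asns encodes asparagine synthetase, which makes asparagine and is a classical target of the amino acid response. Its signal was 942.8, 769.8, 510.8 and 1050.3 in MCD+HF+Met livers, 423.7, 589.3, 827.0 and 888.2 in MCD+HF livers, and 219.2, 92.4, 581.0 and 51.6 in NC livers. The NC mice differed most among themselves, the highest being 11.3 times the lowest. The third NC mouse lay within the range of the diet-fed mice, and the other 3 lay below it. Asns rose by 1.96 with the diet (0.91 to 3.01, adjusted p = 0.00451 by limma), and it was higher by 2.23 in MCD+HF+Met than in NC livers (1.18 to 3.28, adjusted p = 0.00209). Without NC replicate 3 these changes were 2.56 and 2.82. With metformin the change was 0.27 (-0.78 to 1.32, adjusted p = 0.823), an interval wide enough to hold a doubling. A second probe set repeated the spread, with 139.6, 39.7, 316.6 and 38.1 in the NC livers, and gave 2.22 with the diet (adjusted p = 9.4e-04).

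Chac1 encodes a gamma-glutamylcyclotransferase that breaks down glutathione, and Sesn2 encodes sestrin 2, a leucine sensor that holds back mTORC1. Chac1 was 60.1, 90.6, 51.5 and 91.7 in MCD+HF+Met livers, 58.1, 53.6, 56.6 and 83.6 in MCD+HF livers, and 74.4, 56.9, 50.5 and 92.1 in NC livers. Each group held both low and high mice, and the changes were 0.18 with metformin (-0.25 to 0.61), -0.09 with the diet (-0.52 to 0.34) and 0.08 between MCD+HF+Met and NC (-0.34 to 0.51). Sesn2 was 50.9, 66.6, 71.7 and 54.2 in MCD+HF+Met livers, 65.9, 78.5, 66.7 and 37.2 in MCD+HF livers, and 47.5, 54.6, 48.1 and 58.3 in NC livers. The MCD+HF group held both the highest and the lowest Sesn2 value of the 12. Its changes were 0.00 with metformin (-0.38 to 0.38), 0.18 with the diet (-0.20 to 0.56) and 0.18 between MCD+HF+Met and NC (-0.19 to 0.56). A second, dimmer Sesn2 probe set was lower by 0.49 in MCD+HF+Met than in MCD+HF livers, which did not pass (adjusted p = 0.126 by limma).

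Fgf21 encodes a hormone of the liver that rises in fasting and in shortage of methionine or other amino acids, and acts through FGF receptors with the co-receptor beta-Klotho. Its signal was 269.8, 211.7, 125.0 and 135.8 in MCD+HF+Met livers, 265.9, 241.3, 221.4 and 236.6 in MCD+HF livers, and 39.9, 39.8, 72.5 and 28.3 in NC livers. Every diet-fed mouse was above every NC mouse. The 4 MCD+HF mice lay close together, whereas the MCD+HF+Met mice fell into 1 above, 1 just below and 2 well below the MCD+HF range. Fgf21 rose by 2.24 with the diet (1.75 to 2.74, adjusted p = 1.4e-06 by limma), the strongest call among the 9 genes in that comparison by p-value. It was higher by 1.82 in MCD+HF+Met than in NC livers (1.33 to 2.31, adjusted p = 1.6e-05). The change with metformin was -0.42 (-0.92 to 0.07) and did not pass (adjusted p = 0.340).

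**Figure D3:**
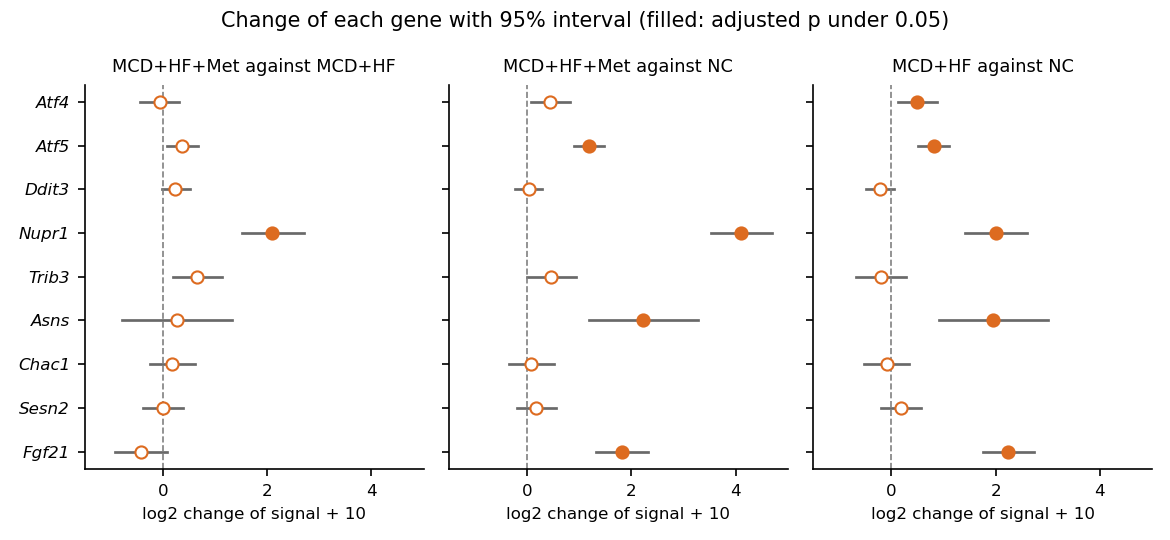
Log2 change of signal + 10 (points) with its 95% interval (lines) for the 9 genes in MCD+HF+Met against MCD+HF, MCD+HF+Met against NC and MCD+HF against NC, filled where the adjusted p was under 0.05. With metformin the filled point is that of Nupr1 (2.10), and with the diet 5 points are filled.

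By CARE match, Nupr1, Fgf21 and Asns rose with the diet, while Trib3 and Chac1, whose windows printed above also hold the core, did not pass the test. Of the genes with no match in the window, Atf4 and Atf5 rose, and Ddit3 and Sesn2 did not pass. A match outside the window would not be seen. The order of group means was MCD+HF+Met, MCD+HF, NC for Nupr1, Atf5 and Asns, but only Nupr1 passed the test at each step. For Fgf21, Atf4 and Sesn2 the MCD+HF mean was the highest, at 241 ± 18.5, 769.5 ± 41.5 and 62.1 ± 17.6, against 186 ± 68.1, 756 ± 195 and 60.8 ± 9.90 in MCD+HF+Met livers (SD, n = 4 each), and none of these differences passed.

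Some mice were the highest or lowest of their group for several genes, and those given here were picked after the counts were seen. NC replicate 3 was the highest NC mouse for 5 of the 9 genes (Atf5, Ddit3, Asns, Fgf21 and Nupr1), while it was the highest NC mouse for 23.6% of all genes tested. MCD+HF+Met replicate 3 was the lowest of its group for 5 of the 9 genes, and for 23.5% of all genes tested. MCD+HF replicates 1 and 4 were each the highest of their group for 4 of the 9 genes, and for 30.2% and 24.1% of all genes tested. These are descriptions without a test, since genes of 1 liver share its RNA. A mouse can be the highest by little, as for Ddit3, at 113.7 in NC replicate 3 and 112.0 in NC replicate 2.

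The genes closest in profile were found by the mean absolute difference over the 12 arrays of log2(signal + 10), each taken relative to its own NC mean, among genes called in the same direction in the comparison of the member's largest called change. For Atf5 the closest was Rnf24 (0.10), for Atf4 2900026A02Rik, Ezh2 and Gigyf1 (0.12 each), and for Fgf21 Wfdc15b (0.20). The closest genes to Asns and Nupr1 lay farther away. The distance is not scaled to the size of a change or to the spread within groups, so this does not show that their profiles are distinct. The closest to Asns was Sqle (0.44), whose signal in NC livers was 133.3, 69.7, 356.6 and 72.5. Its highest NC value was also in the third mouse, but the NC mice entered the choice of Sqle, so this is no separate observation. The closest to Nupr1 was Tubb2b (0.64), with means of 86.9 in MCD+HF+Met, 48.6 in MCD+HF and 3.40 in NC livers. Tubb2b, and Wfdc15b with an NC mean of 17.5, lay below 20 in NC livers and passed the filter through the diet-fed groups.

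Around these 9 genes, 9 lists of genes upstream and downstream of the response, 113 of whose 126 genes were tested, held genes that rose and genes that fell. With the diet 33 rose (29.2%, against 27.4% of all genes tested) and 38 fell (33.6%, against 20.8%). With metformin 5 rose (4.42%, against 1.63%) and 2 fell (1.77%, against 2.34%), and between MCD+HF+Met and NC livers 34 rose (30.1%, against 25.6%) and 36 fell (31.9%, against 18.6%). The counts of single lists are descriptions to be read against these shares of all genes. Among eIF2 kinases, phosphatase subunits and exchange factor subunits, 5 of 16 rose (31.2%) and 3 fell (18.8%) with the diet, both near the shares of all genes. Eif2ak3, the ER stress kinase PERK, averaged 217 ± 11.6 in MCD+HF and 111 ± 17.4 in NC livers (log2 change of 0.92, adjusted p = 1.1e-04 by limma). Impact, an inhibitor of the amino acid sensing kinase GCN2, rose by 1.02 with the diet (adjusted p = 3.6e-05).

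Among partner and related bZIP factors, 6 of 14 rose (42.9%) and 4 fell (28.6%) with the diet. Atf3, a stress-induced repressor and ATF4 target, averaged 178 ± 14.4 in MCD+HF and 22.7 ± 8.54 in NC livers and rose by 2.56 (adjusted p = 3.3e-08 by limma). Cebpa, a hepatocyte C/EBP factor, fell by 1.06 with the diet (adjusted p = 0.00192), and Cebpd rose by 0.98 (adjusted p = 3.3e-04), a call lost with the mean of its probe sets (0.50, adjusted p = 0.137).

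Of 11 amino acid transporters under ATF4, 8 were bright enough to be tested, and 5 of these rose with the diet (62.5%, against 27.4% of all genes tested), with a median change of 0.42. With no filter on signal 4 of 11 rose, with a median of 0.28. Slc7a1 and Slc1a5, 2 of the 5, averaged below 20 in NC livers and passed the filter through the diet-fed groups, so it favoured their being counted. Slc7a1, a cationic amino acid transporter, rose by 1.57 (adjusted p = 4.1e-04 by limma). Slc1a5, a glutamine transporter, averaged 54.9 ± 3.65 in MCD+HF and 17.1 ± 15.7 in NC livers, a change of 1.41 (adjusted p = 4.1e-04), and Slc3a2, the heavy chain shared by several transporters, rose by 0.92 (adjusted p = 1.0e-04). The count was 3 of 8 with quantile normalization, without NC replicate 3 or without MCD+HF replicate 1.

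Genes of serine, proline and one-carbon synthesis split with the diet, 3 of 12 rising (25.0%) and 5 falling (41.7%). Psat1, the aminotransferase of serine synthesis, averaged 233 ± 64.6 in MCD+HF+Met, 237 ± 44.7 in MCD+HF and 13.8 ± 11.9 in NC livers, and rose by 3.49 with the diet (adjusted p = 1.0e-07 by limma). Like Nupr1, Psat1 lay below 20 in NC livers and passed the filter through the diet-fed groups, as did 1 other of the 3 that rose, Aldh18a1. Cbs, which condenses homocysteine with serine on the way to cysteine, averaged 439.9 ± 16.8 in MCD+HF and 1426 ± 172 in NC livers and fell by 1.67 (adjusted p = 6.7e-09). Mthfd1l, a mitochondrial folate enzyme, rose by 1.51 (adjusted p = 1.3e-06).

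Aminoacyl-tRNA synthetases, which charge tRNAs with amino acids, had 4 of 19 higher (21.1%) and 5 lower (26.3%) with the diet. Gars rose by 0.95 (adjusted p = 2.0e-05 by limma), while Tars and Mars1 fell by 0.71 and 0.68 (adjusted p = 8.6e-05 and 2.8e-05). Of the brakes on growth and translation, 3 of 11 rose and 3 fell with the diet (27.3% each). Cdkn1a, which encodes the cell cycle inhibitor p21, averaged 391 ± 206 in MCD+HF+Met, 323 ± 74.8 in MCD+HF and 25.5 ± 1.96 in NC livers and rose by 3.20 with the diet (adjusted p = 4.3e-07). Ddit4, an inhibitor of mTORC1, rose by 1.33 with the diet (adjusted p = 0.00178). Of the 3 that fell, Chac2 changed by -1.14 (adjusted p = 8.3e-06 by limma) and Eif4ebp2 by -0.54 (adjusted p = 7.9e-04). The third, Herpud1, is given with the ER genes below.

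Of ER chaperones, 12 of 14 fell with the diet (85.7%, against 20.8% of all genes tested) and the other 2 did not pass, with a median change of -0.86. Hepatocyte markers moved with them, 7 of 8 being lower, and their part in the fall of the chaperones was not tested. Manf averaged 724 ± 237 in MCD+HF and 1740 ± 483 in NC livers, a change of -1.26 (adjusted p = 4.4e-04 by limma), and Creld2 changed by -1.25 (adjusted p = 1.5e-05). Hspa5, the chaperone BiP, fell by 0.92 (adjusted p = 1.1e-04). Between MCD+HF+Met and NC livers 12 of 14 chaperones were also lower (85.7%, against 18.6% of all genes tested). Their median was -0.59, beside -0.75 for the hepatocyte markers. Herpud1, an ER quality control gene counted among the brakes on growth and translation and not among these chaperones, fell by 1.20 with the diet (adjusted p = 6.0e-06).

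Mitochondrial stress chaperones and proteases had 3 of 11 higher and 3 lower with the diet (27.3% each), among them Lonp1, the matrix protease, which averaged 914 ± 62.3 in MCD+HF and 400.1 ± 51.6 in NC livers (change of 1.18, adjusted p = 3.4e-06 by limma). Of 8 tested genes for the reception and control of FGF21 and GDF15, 4 rose and 3 fell (37.5%) with the diet. The FGF receptor genes Fgfr3, Fgfr1 and Fgfr2 rose by 1.07, 0.97 and 0.53 (adjusted p = 4.8e-04, 3.9e-04 and 0.0130 by limma). A further FGF receptor gene, Fgfr4, fell by 0.54 (adjusted p = 0.00356), with no overlap of groups. Klb, which encodes the co-receptor beta-Klotho, fell by 0.73 (adjusted p = 2.3e-04). Ppara, of the same list, fell by 0.54 (adjusted p = 0.00761), and its groups overlapped. Ppargc1a, a coactivator of fasting genes, rose by 1.54 (adjusted p = 0.00135) with overlapping groups.

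With metformin 7 genes of these lists changed. Cbs averaged 759 ± 81.2 in MCD+HF+Met and 439.9 ± 16.8 in MCD+HF livers (SD, n = 4 each), a rise of 0.77 (adjusted p = 0.00126 by limma), and kept this call whichever mouse was left out. Impact averaged 117 ± 19.7 in MCD+HF+Met and 205 ± 36.4 in MCD+HF livers and fell by 0.76 (adjusted p = 0.00990), also with any mouse left out, though not with the mean of its probe sets (-0.34, adjusted p = 0.124). Atf3 averaged 88.4 ± 13.5 in MCD+HF+Met and 178 ± 14.4 in MCD+HF livers and fell by 0.94 (adjusted p = 0.0124), where Nupr1 rose. Its call was lost without MCD+HF replicate 2 (-0.90, adjusted p = 0.0512).

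The other 4 rose by less. Eif4ebp1, a repressor of cap-dependent translation and ATF4 target, rose by 0.53 (adjusted p = 0.0205 by limma), and the call was lost without MCD+HF replicate 1 (0.0566) or 2 (0.0763) or MCD+HF+Met replicate 2 (0.0530). Iars, the isoleucine tRNA synthetase, rose by 0.46 (adjusted p = 0.0225), a call lost without MCD+HF replicate 2 (0.0630) or 4 (0.0604) or MCD+HF+Met replicate 2 (0.0764). Calr, the ER chaperone calreticulin, rose by 0.45 (adjusted p = 0.0360) and Mthfd1l by 0.63 (adjusted p = 0.0371), and each lost its call in 7 of 12 omissions of 1 mouse. For Calr these were NC replicate 2, MCD+HF replicates 2, 3 and 4 and MCD+HF+Met replicates 2, 3 and 4, with adjusted p of up to 0.0996. Calr also failed with a replicate block (0.0593), quantile normalization (0.0647), no filter (0.0764) and the mean of its probe sets (0.0882). For Mthfd1l they were MCD+HF replicates 1 to 4 and MCD+HF+Met replicates 2, 3 and 4, with adjusted p of up to 0.102. Mthfd1l also failed with an offset of 1 (0.0591) and with no filter (0.0697).

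**Figure D4:**
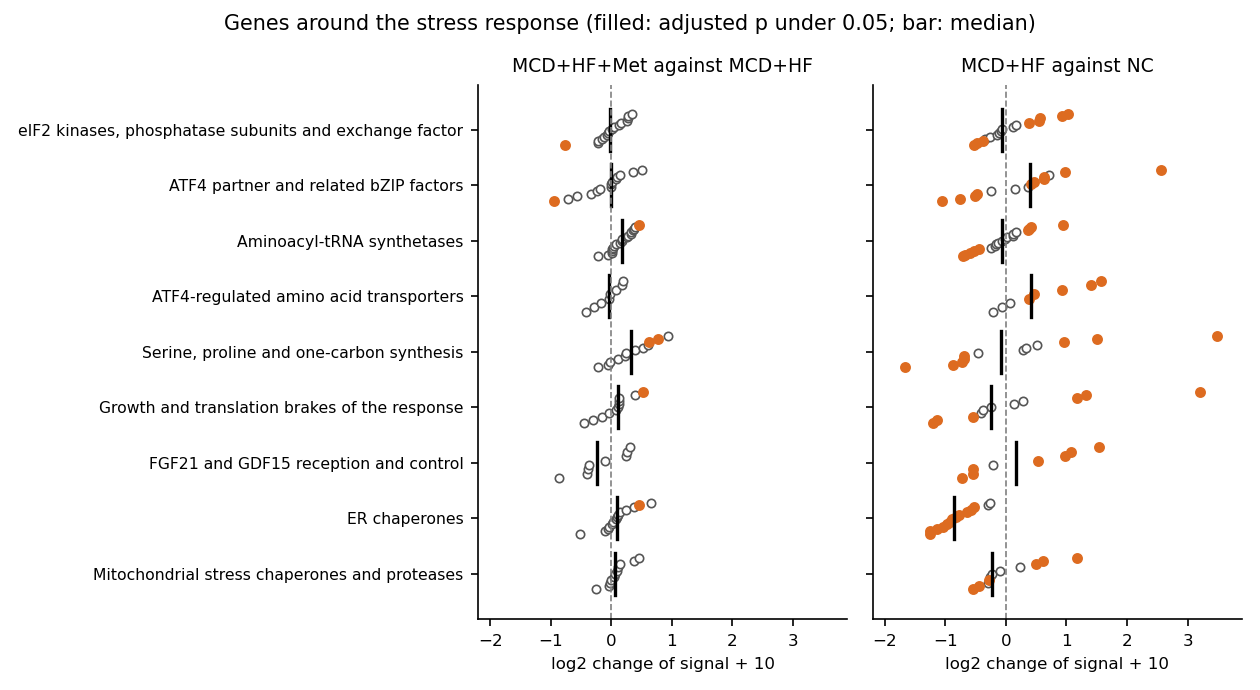
Log2 change of signal + 10 of each tested gene (points) in 9 lists for MCD+HF+Met against MCD+HF (left) and MCD+HF against NC (right), filled where the adjusted p was under 0.05, with the median of each list as a bar. On the right 12 of 14 ER chaperones lie filled below 0, and on the left 7 points are filled in all.

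Hepatocyte markers were high in all livers, and their summed signal over 8 of 10 listed genes was 54080 to 70537 in MCD+HF+Met, 47895 to 61138 in MCD+HF and 97648 to 113466 in NC livers. The sum over 10 of 10 macrophage markers was 3499 to 6358 in MCD+HF+Met, 6590 to 8505 in MCD+HF and 4350 to 5515 in NC livers. Over 10 of 10 stellate cell and myofibroblast markers it was 5358 to 7983 in MCD+HF+Met, 7436 to 9261 in MCD+HF and 2160 to 2896 in NC livers. Over 6 of 8 cholangiocyte markers it was 220.4 to 484 in MCD+HF+Met, 320.2 to 444 in MCD+HF and 41.0 to 105 in NC livers. With the diet 7 of 8 hepatocyte markers fell, while 9 of 10 stellate and 6 of 10 macrophage markers rose and 1 macrophage marker fell. The 5 cholangiocyte markers tested also rose, but all 5, like Col1a1 of the stellate list, averaged below 20 in NC livers and passed the filter through the diet-fed groups, so their count is no more than a description. With metformin 3 of 10 macrophage and 2 of 10 stellate markers fell. The part of these cells in the changes of Nupr1, Fgf21, Asns, Atf5 and Atf4 was not tested. Lymphocyte and adipocyte markers were all below the level tested, and no marker had a group mean of 0. Of 7 neutrophil markers 2 were tested and both rose with the diet. In that comparison 1 of 8 endothelial markers rose (12.5%) and 2 fell (25.0%). There 2 of 3 tested pancreatic acinar markers fell (66.7%), of which Prss2 averaged 14.0, below 20, in MCD+HF livers.

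Signs of RNA quality were taken from the control probe sets. The Actb control probe sets gave a 3′ over 5′ signal ratio of 1.73 ± 0.114 in MCD+HF+Met, 1.54 ± 0.0694 in MCD+HF and 1.73 ± 0.140 in NC livers (SD, n = 4 each), lowest in the MCD+HF group, and that of Gapdh was 0.757 ± 0.0451 in MCD+HF+Met, 0.699 ± 0.0123 in MCD+HF and 0.710 ± 0.0122 in NC livers. The part of RNA quality in the changes was not tested. Median correlations of log2(signal + 10) between arrays of a group were 0.975 in MCD+HF+Met, 0.981 in MCD+HF and 0.976 in NC, and those between groups were 0.970 for MCD+HF+Met with MCD+HF and 0.899 for MCD+HF with NC.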

How the data were processed

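Total RNA of each liver was labelled and hybridised to an Affymetrix mouse array, 1 per mouse. The authors used GCOS to summarise each probe set as a signal intensity (version 1.1 in the submitters' processing notes and the methods) and scaled each array to an average of 100; the deposited intensities are on a linear scale. Every array averaged 100.0 once the highest and lowest 2% of probe sets were trimmed. GCOS detection and change calls were not used. An intensity has no read depth, so the 4 arrays per group limit the precision.

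Of 45101 probe sets, 64 were controls and not used, and the 22830 averaging 20 or more over the arrays were tested as log2(signal + 10), with no further normalization. The platform annotation gave a single gene symbol to 34945 probe sets, and several to 932, while 9160 stayed unnamed here; symbols of 34741 were updated by gene identifier from RefSeq (GRCm38.p6). Per gene the brightest probe set naming it alone was used, an _x_at one only if there was no other. The 3 groups, taken from the sample labels, were fitted in 1 model with limma 3.58.1 (R 4.3.3; lmFit, contrasts.fit and eBayes with trend; 9 residual degrees of freedom), with Benjamini-Hochberg adjustment over the tested probe sets. The script was tested on simulated data.

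The members and lists were chosen with earlier results of these data known. Besides the members, up to 3 called genes per pathway list and comparison were named, those with the largest change. Also named were the 3 genes closest in profile to each called member. Genes were picked from these. Hspa5, Klb, Fgfr2, Fgfr4 and Eif4ebp2, and the diet changes of Ppara and Chac2, were added after their values were seen. Replicate numbers were not taken as pairs in the main fit. Deviations of same-numbered mice correlated from -0.13 to 0.25, which cannot show whether such mice shared a cage or litter. Alternatives were offsets of 1 and 32, no filter, a filter at 50.0, quantile normalization, robust variance, 2-group fits, the mean of all probe sets, a replicate block, the methods' t-test, the methods' rule (over 1.5-fold with an unadjusted p under 0.05), and leaving out each mouse. Figures were drawn with matplotlib 3.10.9 under Python 3.11.15.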

Additional observations from a re-analysis of the deposited data

Results flagged for a closer look

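In 2 of the 27 groups of 4 mice tested (9 genes in 3 groups) 1 mouse lay apart from the other 3 by Dixon's test, where chance flags about 1 in 20 groups. Both were in the MCD+HF group. Trib3 had a signal of 118.0 in MCD+HF replicate 1, against 62.4 to 68.5 in the other 3, and the gap was 0.890 of the range. Chac1 had a signal of 83.6 in MCD+HF replicate 4, against 53.6 to 58.1 in the other 3, with a gap of 0.850 of the range. Without MCD+HF replicate 1 the change of Trib3 with metformin was 0.85, and it still did not pass (adjusted p = 0.0507 by limma).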

How the results depend on the processing

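Over 23 alternatives, the count of members that passed stayed within 1.5 times its value in 67 instances. The exceptions were both with the methods' t-test after Benjamini-Hochberg adjustment. With the diet that test passed 3 members, beside 4696 of all 11099 genes, and Atf4 (adjusted p of 0.0549) and Asns (0.0879) were lost. With metformin it passed 0 members, beside 5 of all 11099 genes, and Nupr1 had an adjusted p of 0.104. Over the 23 alternatives the adjusted p of Nupr1 with metformin ran from 5.4e-05 to 0.104 and its change from 1.88 to 2.45. The methods' rule passed 4 members with the diet, 1 with metformin and 4 between MCD+HF+Met and NC. In the same comparisons it passed 3193, 437 and 2819 of all 11099 genes.

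Directions turned only for changes that passed under no alternative. With the mean of all probe sets Atf4 with metformin was 0.02, Ddit3 between MCD+HF+Met and NC was -0.23 and Sesn2 in that comparison was -0.08, and with quantile normalization Ddit3 there was -0.05. On leaving out 1 mouse, Atf4 with metformin ran from -0.17 to 0.12, Ddit3 between MCD+HF+Met and NC from -0.04 to 0.08, Chac1 with the diet from -0.22 to 0.04 and Chac1 between MCD+HF+Met and NC from -0.03 to 0.22. Sesn2 with metformin, at 0.00, was -0.24 with the mean of its probe sets. The cause was not tested. Atf4 with the diet also failed with the mean of its probe sets (0.23, adjusted p = 0.0913 by limma) and under the methods' rule. In that mean the third Atf4 probe set, whose mean signal was 1.57, had the same weight as the others. Asns between MCD+HF+Met and NC failed by the methods' t-test (adjusted p = 0.0710). In all, 11 member changes lost their call and 6 gained one. Of the counts per pathway list, 551 stayed within 1.5 times, 59 were lower and 11 higher, and of the changes of named list genes 1423 held and 64 lost their call. The diet changes of Fgfr2, Fgfr4, Ppara, Chac2 and Eif4ebp2 are not among these. Replicate numbers were taken only as numbers in the main fit. A fit with a replicate block passed 5 members with the diet, 1 with metformin (Nupr1, adjusted p = 0.00447) and 4 between MCD+HF+Met and NC, and changed no call of a member. In the same comparisons this fit passed 5301, 393 and 4843 of all 11099 genes. Of the list gene changes counted above, it ended the call of Calr with metformin (0.0593). With 4 mice a group, intervals such as that of Asns do not separate no change from a doubling, and signals below 20, as for Nupr1 in NC, lie near the dim end of the arrays.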
